A study of Homo sapiens with 24 samples.

Results

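The genes described are 10 immediate early genes, EGR1, EGR2, EGR3, NR4A1, NR4A2, NR4A3, IER2, IER3, IER5 and KLF6. They were taken by symbol from the 28395 gene identifiers of the count tables, and all 10 were present. They were followed through 3′ RNA sequencing, which reads transcripts near their polyadenylated ends, in JJN3 and MM1.S, both established human multiple myeloma lines. JJN3 is labelled p53-null and MM1.S p53-WT. Cells of each line received CX-5461 (500 nM) together with panobinostat (50 nM), panobinostat alone (50 nM), CX-5461 alone (500 nM) or vehicle, with RNA taken after 24 h and 3 libraries in each of the 8 groups. CX-5461 blocks the transcription of ribosomal RNA genes, and panobinostat is a histone deacetylase inhibitor. Each p53 status is represented by 1 line, so p53 and every other difference between the lines cannot be told apart. Line and sequencing run also cannot be told apart where vehicle groups are compared. Whether the 3 libraries of a group were grown separately is not in the labels, and every p-value therefore reflects only how far these libraries vary, which may be technical.

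Immediate early genes are switched on within minutes of a growth factor, antigen receptor or stress signal, from transcription factors already present in the cell. Kinases of the MAPK pathway act through SRF and its ELK partners at CArG boxes, and through CREB at sites with the core TGACG, and the transcripts are usually short-lived. EGR proteins are zinc finger activators that bind GC-rich sites and are held back by the corepressors NAB1 and NAB2. NR4A proteins are orphan nuclear receptors that bind DNA alone or, for NR4A1 and NR4A2, with RXR. IER2 and IER5 belong to 1 family of nuclear proteins, IER3 is an unrelated stress-response gene, and KLF6 is a zinc finger transcription factor. EGR1 and NR4A1 are widely used as readouts of antigen receptor signalling in lymphocytes.

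Library totals ranged from 4751893 to 7305069 counts (median 5551876). At this depth a count of 0 in all 3 libraries of a group allows up to 0.144 to 0.193 CPM (counts scaled to the library total), taking 3 counts over the group as the limit, and such limits cover counting error only. The plasma cell markers were all detected in MM1.S, with summed levels of 8510 to 8980 CPM in vehicle libraries. In JJN3 vehicle libraries they summed to 4080 to 5080 CPM, with 1 of 10, CD38, near 0 at 0.062 CPM. Markers of B cells, T and NK cells and myeloid cells summed to at most 1.67 CPM in any vehicle library. Among 5 epithelial and stromal markers, EPCAM averaged 13.5 CPM in JJN3 vehicle libraries and PECAM1 23.8 CPM in MM1.S vehicle libraries. The 4 JJN3 libraries of replicate 2 stood apart from the others on the second principal component (8.51% of the variance). Their effect on the results is given where it changed a call.

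Sequence just before the annotated start was available for 7 of the 10 genes in RefSeq (GRCh38.p14). EGR3, NR4A2 and IER3 were not in that table. The 250 bases before the start are printed for 5 of them: EGR1, EGR2 and NR4A3, which rose from near 0 in MM1.S under panobinostat, IER5, which was highest with CX-5461 alone, and KLF6, which fell under panobinostat. Capitals mark matches, on either strand, to 3 motifs: the CArG box, the TGACG core of CREB sites (CGTCA when read on the other strand) and the EGR site GCGNGGGCG. EGR2 has 3 annotated starts, and the one shown was chosen because it holds matches.
EGR1 (chr5:138465229-138465478, plus strand): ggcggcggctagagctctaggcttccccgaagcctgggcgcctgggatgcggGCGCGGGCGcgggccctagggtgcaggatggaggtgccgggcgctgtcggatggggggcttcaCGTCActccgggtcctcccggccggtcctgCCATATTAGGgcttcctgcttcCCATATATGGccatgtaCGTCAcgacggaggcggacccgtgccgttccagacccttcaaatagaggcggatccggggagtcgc
EGR2 (chr10:62816367-62816616, minus strand): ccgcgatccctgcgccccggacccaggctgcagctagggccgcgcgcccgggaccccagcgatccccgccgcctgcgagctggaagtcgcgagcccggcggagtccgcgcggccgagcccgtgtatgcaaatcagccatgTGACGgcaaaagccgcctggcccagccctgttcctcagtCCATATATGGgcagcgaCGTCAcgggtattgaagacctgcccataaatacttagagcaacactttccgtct
NR4A3 (chr9:99821635-99821884, plus strand): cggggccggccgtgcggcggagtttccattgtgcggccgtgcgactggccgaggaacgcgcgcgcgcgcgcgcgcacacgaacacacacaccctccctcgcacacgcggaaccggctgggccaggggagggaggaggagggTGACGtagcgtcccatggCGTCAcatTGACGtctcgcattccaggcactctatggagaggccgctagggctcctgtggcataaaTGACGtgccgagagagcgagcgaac
IER5 (chr1:181088450-181088699, plus strand): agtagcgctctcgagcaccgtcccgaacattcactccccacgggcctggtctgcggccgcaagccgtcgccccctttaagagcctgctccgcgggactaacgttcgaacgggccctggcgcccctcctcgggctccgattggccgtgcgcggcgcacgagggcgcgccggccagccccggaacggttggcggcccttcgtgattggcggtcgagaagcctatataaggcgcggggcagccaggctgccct
KLF6 (chr10:3785210-3785459, minus strand): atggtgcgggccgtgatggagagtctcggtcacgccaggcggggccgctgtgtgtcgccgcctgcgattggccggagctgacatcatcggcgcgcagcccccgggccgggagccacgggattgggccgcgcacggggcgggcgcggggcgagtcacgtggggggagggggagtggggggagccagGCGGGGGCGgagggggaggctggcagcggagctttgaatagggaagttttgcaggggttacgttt

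The EGR1 sequence holds 2 CArG boxes, CCATATTAGG at 105 to 96 and CCATATATGG at 83 to 74 bases before the start, with 2 TGACG cores and 1 EGR site. The second of these CArG boxes recurs letter for letter in the EGR2 sequence, at 71 to 62 bases before the start, where 2 TGACG cores were also found. NR4A3 holds 4 TGACG cores and no CArG box. IER2, not printed, holds 1 TGACG core at 140 to 136 bases before the start. KLF6 holds 1 EGR site, GCGGGGGCG, at 65 to 57 bases before the start. In IER5, in both starts of NR4A1 and in the other 2 starts of EGR2, none of these letters were found in the window. Among 35116 RefSeq windows of the same length, 1.16% hold a CArG box, 21.2% a TGACG core and 8.41% an EGR site. The full palindrome TGACGTCA, which contains the core, is in 1.65% of windows and in none of these genes. A match is a description of the letters and not evidence that a factor was bound.

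**Figure D1:**
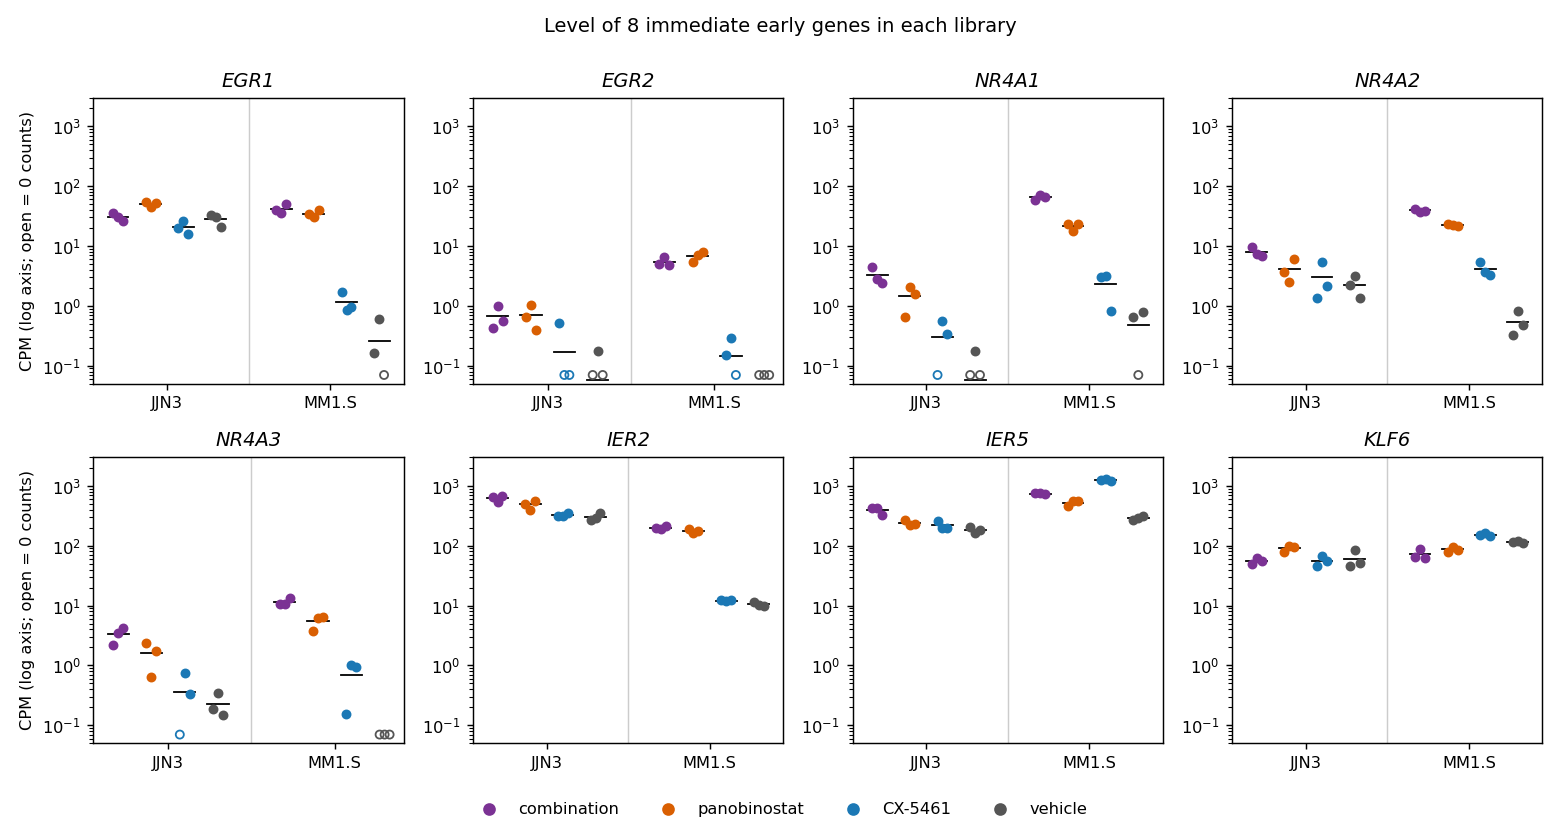
Level of 8 of the genes in each library, as CPM on a log axis, with combination, panobinostat, CX-5461 and vehicle groups from left to right within JJN3 and MM1.S. Points are libraries, bars are means of 3 libraries, and open points at the lower edge are libraries with 0 counts. In MM1.S the EGR1, EGR2, NR4A and IER2 points of the panobinostat and combination groups lie above all vehicle points, whereas IER5 is highest with CX-5461 alone, at 1226 to 1315 CPM. EGR3 and IER3 are not drawn.

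EGR3 and IER3 were practically undetected. EGR3, an EGR paralog, had at most 6 counts over the 3 libraries of any group, and IER3 had 1 count in all 24 libraries, in an MM1.S vehicle library. Neither passed the filter on low counts, so 8 genes were tested in MM1.S. EGR2 also failed that filter in JJN3, where 7 were tested. A gene is called higher or lower where its adjusted p in edgeR's quasi-likelihood test is under 0.05, and log2 fold changes are given ± standard error after TMM scaling, so they can differ from the ratio of CPM values. Where the 3 libraries of a group held 3 or fewer counts, no fitted fold change is given. Some values from fits that left out libraries do rest on a group with 3 or fewer remaining counts. Among them are the EGR1 values without MM1.S vehicle replicate 1 or 2, and some NR4A3 values in JJN3. In bulk RNA, a change in the share of cells expressing a gene and a change in the amount per cell cannot be told apart.

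JJN3 vehicle libraries held more EGR1, IER2 and NR4A2 and less IER5, KLF6 and NR4A1 than MM1.S vehicle libraries. These 6 calls, of 8 genes tested, stand against 63.7% of 12872 genes called between the lines, 30.2% higher and 33.5% lower in JJN3, and that share is near theirs. EGR1 averaged 28.1 ± 6.57 CPM in JJN3 vehicle libraries and 0.257 ± 0.317 CPM in MM1.S vehicle libraries (SD, n = 3 each), a log2 difference of 6.77 ± 0.42 (edgeR adjusted p = 1.35e-14). It was 8.16 without MM1.S vehicle replicate 2. IER2 averaged 302.9 ± 41.2 CPM in JJN3 and 10.5 ± 0.866 CPM in MM1.S (4.81 ± 0.15, edgeR adjusted p = 5.07e-22). For scale, the mean levels with panobinostat in MM1.S were 34.5 CPM for EGR1 and 177.7 CPM for IER2. NR4A2 was higher in JJN3 by 2.01 ± 0.56 (edgeR adjusted p = 0.0026). IER5 and KLF6 were lower in JJN3, with log2 differences of -0.69 ± 0.13 (edgeR adjusted p = 3.88e-05) and -0.98 ± 0.16 (edgeR adjusted p = 4.5e-06). NR4A1 had 1 count in the JJN3 group and 9 in the MM1.S group, a ratio of 0.109 (95% counting interval 0.00249 to 0.789). Its edgeR adjusted p of 0.0494 was above 0.05 with limma-voom, RLE size factors, library size alone or the replicate block (range over alternatives 0.0184 to 0.1). It was also above 0.05 without vehicle replicate 1 or 3 of either line.

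Panobinostat changed most of these genes in both lines. In MM1.S, it raised EGR1, EGR2, NR4A1, NR4A2, NR4A3, IER2 and IER5 and lowered KLF6, so all 8 tested genes were called, 7 higher and 1 lower. As 69.8% of 12030 genes were called in this comparison (36.9% higher), the count of calls says little about these genes. The size of the changes is given as a description only, for genes chosen with earlier results known. EGR1, EGR2, NR4A1 and NR4A3 had 4, 0, 9 and 0 vehicle counts. These passed the filter on low counts only through groups with panobinostat, so their rises could hardly have been small. The median log2 fold change of the 8 genes was 5.10 with genes at 0 in vehicle placed at their lower bound, against 0.066 for all genes. In JJN3, 5 of 7 tested genes were called, EGR1, NR4A1, NR4A3, IER2 and KLF6, all higher, where 26.0% of 11411 genes were called and 15.0% were called higher. The median log2 fold change of the 7 genes was 0.81, against 0.00533 for all genes. In JJN3, NR4A1 and NR4A3 likewise passed the filter only through groups with panobinostat. With the replicate number as a block, which pairs the JJN3 libraries, IER5 was called as well, 6 of 7, where 41.9% of genes were called. Without vehicle replicate 3 only 2 of the 7 were called, and without panobinostat replicate 1 only 3.

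CX-5461 alone raised 6 of the 8 tested genes in MM1.S, EGR1, NR4A1, NR4A2, NR4A3, IER5 and KLF6, and lowered none. When CX-5461 replicate 1 was left out, only 3 were called. Of all genes tested there, 16.7% were called, with 9.68% called higher and 7.06% lower. Higher calls were 57.8% of all calls, and 75.2% with scaling to library size alone. In JJN3 edgeR called 0 of the 7 tested genes and 0% of all genes. DESeq2 called 19 genes and the fit with the replicate number as a block called 157 (1.38%), none of them among the 7, and 633 genes had an unadjusted p under 0.05.

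The combination raised the same 7 genes as panobinostat in MM1.S and lowered KLF6, where 70.2% of genes were called and 37.0% called higher. In JJN3 it raised NR4A1, NR4A2, NR4A3, IER2 and IER5, 5 of 7, where 39.2% of genes were called and 21.0% called higher. Some of these genes passed the filter on low counts only through groups with panobinostat, so their rises could hardly have been small. They were EGR1, EGR2, NR4A1 and NR4A3 in MM1.S, and NR4A1 and NR4A3 in JJN3. Higher calls made up 53.7% of all JJN3 calls, and 65.7% with scaling to library size alone. The 3 comparisons with vehicle in a line share its vehicle libraries, so their calls are not independent of each other. In MM1.S, the summed plasma cell markers were 1040 to 1190 CPM with the combination and 1100 to 1370 CPM with panobinostat, against 8510 to 8980 CPM with vehicle. In JJN3 the sums were 2710 to 3240 CPM with the combination and 3280 to 3930 CPM with panobinostat, against 4080 to 5080 CPM with vehicle. Myeloid markers summed to 6.57 to 8.36 CPM in MM1.S CX-5461 libraries, against 0.475 to 0.611 CPM in vehicle libraries, with 3 of the 4 markers averaging under 1 CPM in the CX-5461 group. The 4 B cell markers summed to 3.95 to 6.95 CPM in MM1.S combination libraries, against 0 to 0.611 CPM in vehicle libraries. The part of these shifts in the results was not tested.

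**Figure D2:**
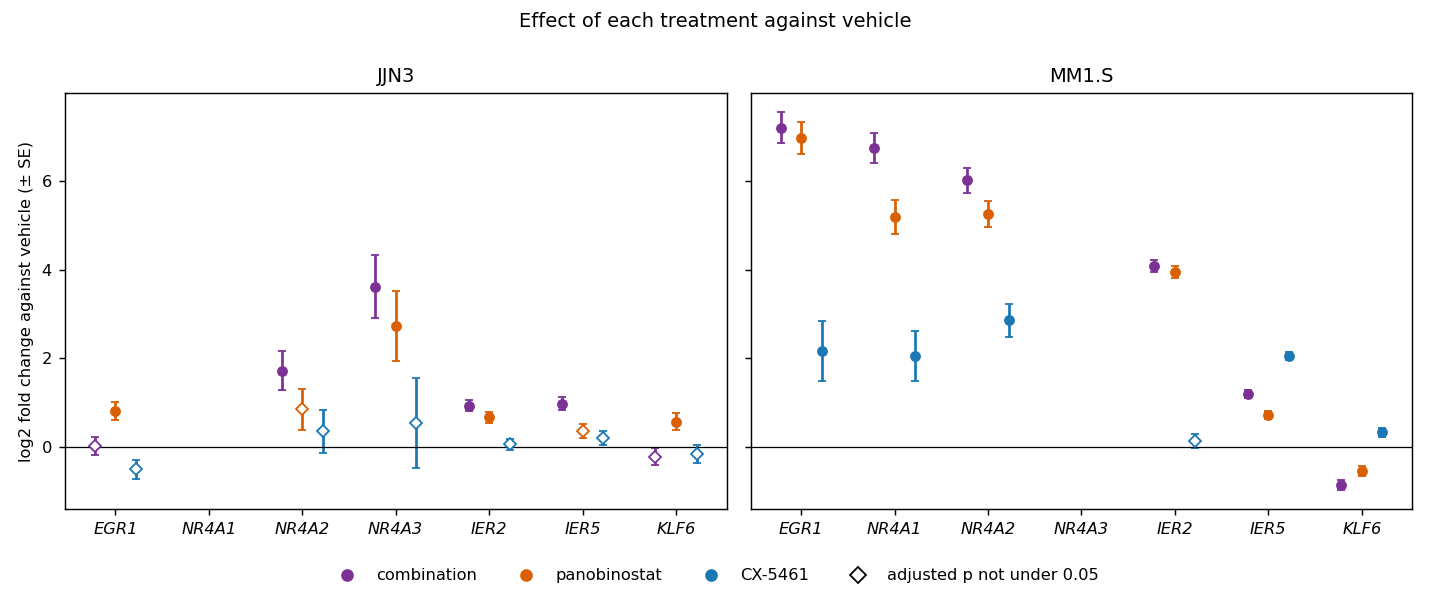
Log2 fold change against vehicle (± SE, edgeR) of 7 genes in JJN3 and MM1.S, for combination, panobinostat and CX-5461. Open diamonds are values whose adjusted p is not under 0.05, and values that rest on a group with 3 or fewer counts are left out. The EGR1 values lie between -0.51 and 0.81 in JJN3 and reach 7.21 in MM1.S with the combination.

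EGR1, the best known member of the EGR family, was near 0 in untreated MM1.S and high with panobinostat. It was at 39.7, 35.9 and 49.6 CPM in combination libraries, 33.9, 30.4 and 39.3 CPM in panobinostat libraries, 1.67, 0.857 and 0.958 CPM in CX-5461 libraries, and 0.16, 0.611 and 0 CPM in vehicle libraries. All libraries with panobinostat lay above all others, the combination and panobinostat groups overlapped, and every CX-5461 library lay above every vehicle library. The log2 fold change against vehicle was 7.21 ± 0.36 with the combination and 6.98 ± 0.36 with panobinostat (edgeR adjusted p = 4.57e-15 and 1.42e-14). Those folds rest on 4 counts in the vehicle group, and without vehicle replicate 2, which held 3 of them, they were 8.51 and 8.28. Without vehicle replicate 3, which held none, they were 6.58 and 6.35. With CX-5461 it was 2.16 ± 0.68 (edgeR adjusted p = 0.0299). That call was lost without vehicle replicate 1, vehicle replicate 3 or CX-5461 replicate 1, at log2 fold changes of 1.96, 1.53 and 1.81, and without vehicle replicate 2 the value was 3.49. The combination differed from panobinostat by 0.24 ± 0.17, which was not called (edgeR adjusted p = 0.481).

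In JJN3, EGR1 was at 35.1, 30.7 and 25.8 CPM in combination libraries, 53.6, 44.8 and 52.5 CPM in panobinostat libraries, 19.7, 26.2 and 15.6 CPM in CX-5461 libraries, and 32.9, 30.8 and 20.6 CPM in vehicle libraries. Panobinostat libraries lay above all others, while the remaining 3 groups overlapped. Panobinostat raised EGR1 by 0.81 ± 0.21 (edgeR adjusted p = 0.00884), and without vehicle replicate 3 the value was 0.605 and the call was lost. With the combination it was 0.01 ± 0.21 against vehicle, and with CX-5461 -0.51 ± 0.22, neither called (edgeR adjusted p = 0.965 and 0.851). Against panobinostat, the combination was lower in 3 of 3 replicate numbers, at -0.80 ± 0.21 (edgeR adjusted p = 0.0726). With the replicate number as a block the same difference was -0.81 ± 0.14 and was called (edgeR adjusted p = 0.000322, range over alternatives 0.000322 to 0.0857), as it was with DESeq2 and without the filter on low counts. The block also called EGR1 higher in the combination than with CX-5461, by 0.53 ± 0.15 (edgeR adjusted p = 0.00585, range over alternatives 0.00585 to 0.0723), against 0.0699 without it. Scaling to library size alone, leaving out the filter on low counts, or leaving out CX-5461 replicate 2 (0.74) or combination replicate 3 (0.65) also gave that call.

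EGR2, whose protein binds similar sites to EGR1, exceeded 11 counts per group only in the MM1.S groups given panobinostat. Its counts were 25, 37 and 25 in combination libraries, 27, 38 and 40 in panobinostat libraries, 1, 2 and 0 in CX-5461 libraries, and 0 in all 3 vehicle libraries. EGR2 was at least 31.8-fold higher with the combination and at least 39.3-fold higher with panobinostat than with vehicle, taking 3 counts over the group as the limit. Both were called (edgeR adjusted p = 7.58e-09 and 1.81e-09), and the combination and panobinostat groups overlapped (log2 fold change -0.34 ± 0.29, edgeR adjusted p = 0.577). In JJN3 the summed counts were 11 with the combination, 11 with panobinostat, 3 with CX-5461 and 1 with vehicle. The ratio to vehicle was 11.3 with the combination (95% counting interval 1.64 to 487) and 12.1 with panobinostat (1.76 to 522). EGR3 held 4 counts with the combination, 6 with panobinostat and 0 with CX-5461 or vehicle in MM1.S. In JJN3 it held 1 with the combination, 2 with panobinostat, 2 with CX-5461 and 1 with vehicle. EGR3 and IER3 are overlapped on the opposite strand by AC055854.1 and IER3-AS1, and reads of each pair cannot be told apart.

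The 3 NR4A receptor genes moved in 1 direction and in the same order of treatments in MM1.S. NR4A1 was at 58.7, 70.5 and 66.2 CPM in combination libraries, 23.1, 18.0 and 23.4 CPM in panobinostat libraries, 3.04, 3.14 and 0.821 CPM in CX-5461 libraries, and 0.642, 0 and 0.792 CPM in vehicle libraries. No 2 of these 4 groups overlapped. The log2 fold change against vehicle was 6.76 ± 0.34 with the combination, 5.19 ± 0.38 with panobinostat and 2.05 ± 0.56 with CX-5461 (edgeR adjusted p = 2.68e-14, 3.3e-11 and 0.0135). The CX-5461 call was lost without vehicle replicate 2, CX-5461 replicate 1 or CX-5461 replicate 2, at 1.59, 1.80 and 1.77. A noncoding gene, AC025259.3, overlaps NR4A1 on the opposite strand, and the strand setting of the counting is not given in the sources used here, so reads of the pair cannot be told apart.

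NR4A2 was at 41.7, 37.5 and 38.4 CPM in combination libraries, 23.3, 22.7 and 21.6 CPM in panobinostat libraries, 5.32, 3.71 and 3.29 CPM in CX-5461 libraries, and 0.321, 0.814 and 0.475 CPM in vehicle libraries of MM1.S. Again no groups overlapped. The log2 fold change against vehicle was 6.02 ± 0.27 with the combination, 5.26 ± 0.29 with panobinostat and 2.86 ± 0.38 with CX-5461 (edgeR adjusted p = 7.4e-16, 3.49e-14 and 4.68e-06). NR4A3 had 53, 61 and 69 counts in combination libraries, 19, 34 and 33 in panobinostat libraries, 1, 7 and 7 in CX-5461 libraries and 0 in the 3 vehicle libraries. Relative to vehicle it was at least 67-fold higher with the combination, at least 32.2-fold higher with panobinostat and at least 4.18-fold higher with CX-5461. All 3 of these differences were called (edgeR adjusted p = 1.13e-10, 1.26e-08 and 0.00728).

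Adding CX-5461 to panobinostat in MM1.S raised all 3 NR4A genes further. Against panobinostat, the combination was higher by 1.57 ± 0.19 for NR4A1, by 0.76 ± 0.15 for NR4A2 and by 1.03 ± 0.28 for NR4A3 (edgeR adjusted p = 3.11e-05, 0.00467 and 0.0351), in fold terms 2.96, 1.70 and 2.04. With IER5 these were 4 of 8 tested genes called higher, where 4.08% of genes were called and 2.44% called higher. Higher calls were 59.7% of all calls in this comparison, and 72.8% with scaling to library size alone. The NR4A3 call was lost without panobinostat replicate 1, 2 or 3, at 0.84, 1.11 and 1.15, and without combination replicate 1 or 3, at 1.08 and 0.905. It was kept without combination replicate 2.

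In JJN3 the NR4A genes held few counts, and the combination and panobinostat groups had the most. NR4A1 had 31, 14 and 13 counts in combination libraries, 4, 10 and 8 in panobinostat libraries, 0, 3 and 2 in CX-5461 libraries, and 0, 1 and 0 in vehicle libraries. Its ratio to vehicle was 59.6 with the combination (95% counting interval 10.3 to 2400) and 24.3 with panobinostat (3.92 to 1000), both called (edgeR adjusted p = 0.000159 and 0.00657). NR4A3 had 15, 17 and 23 counts in combination libraries, 15, 3 and 9 in panobinostat libraries, 0, 4 and 2 in CX-5461 libraries, and 1, 2 and 1 in vehicle libraries. The combination raised it by 3.61 ± 0.71 and panobinostat by 2.73 ± 0.78 (edgeR adjusted p = 0.000712 and 0.0165). The panobinostat call was lost without vehicle replicate 3 or panobinostat replicate 1, at 2.46 and 2.25.

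NR4A2 was at 9.54, 7.26 and 6.87 CPM in combination libraries, 3.69, 2.52 and 6.08 CPM in panobinostat libraries, 1.36, 5.46 and 2.16 CPM in CX-5461 libraries, and 2.23, 3.17 and 1.35 CPM in vehicle libraries of JJN3. The combination libraries lay above all others and the other 3 groups overlapped. The combination raised NR4A2 by 1.72 ± 0.44 against vehicle (edgeR adjusted p = 0.00492). With panobinostat the value was 0.85 ± 0.47 and was not called (edgeR adjusted p = 0.2). Without the 4 libraries of replicate 2, a fit that was not planned, it was 1.40 and called (edgeR adjusted p = 0.0331, range over alternatives 0.0331 to 0.212). With the replicate block it was 0.88 ± 0.45 and not called (edgeR adjusted p = 0.123). Combination against panobinostat gave 1.15 ± 0.53 for NR4A1, 0.87 ± 0.41 for NR4A2 and 0.88 ± 0.52 for NR4A3, none called, with edgeR adjusted p = 0.34, 0.347 and 0.469.

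IER2 overlaps an antisense gene, AC011446.2, and reads of the pair cannot be told apart. In MM1.S IER2 was at 196.3, 189.1 and 215.2 CPM in combination libraries, 193.3, 161.1 and 178.6 CPM in panobinostat libraries, 12.2, 11.9 and 12.2 CPM in CX-5461 libraries, and 11.4, 10.4 and 9.67 CPM in vehicle libraries. The groups with panobinostat lay above the others and overlapped each other, and every CX-5461 library lay above every vehicle library. The log2 fold change against vehicle was 4.08 ± 0.13 with the combination and 3.95 ± 0.13 with panobinostat (edgeR adjusted p = 8.39e-19 and 1.78e-18). With CX-5461 it was 0.13 ± 0.15, not called (edgeR adjusted p = 0.619), and adding CX-5461 to panobinostat gave 0.14 ± 0.10, not called (edgeR adjusted p = 0.512).

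In JJN3, IER2 was at 645.9, 544.6 and 675.2 CPM in combination libraries, 502.5, 401.1 and 564.7 CPM in panobinostat libraries, 317.3, 310.2 and 351.1 CPM in CX-5461 libraries, and 269.5, 290.2 and 349 CPM in vehicle libraries. CX-5461 and vehicle libraries overlapped, as did combination and panobinostat libraries, and all libraries with panobinostat lay above all those without. The combination raised IER2 by 0.93 ± 0.13 and panobinostat by 0.66 ± 0.13 (edgeR adjusted p = 3.21e-05 and 0.00136). Combination against panobinostat gave 0.26 ± 0.13 (edgeR adjusted p = 0.369), higher in 3 of 3 replicate numbers. With the replicate block it was 0.27 ± 0.08 and called (edgeR adjusted p = 0.0286, range over alternatives 0.0286 to 0.552).

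IER5, a stress-responsive gene whose protein is known to act on heat shock factor HSF1, was highest with CX-5461 alone in MM1.S. It was at 752.1, 752.4 and 720.7 CPM in combination libraries, 462.8, 556.6 and 548.5 CPM in panobinostat libraries, 1257, 1315 and 1226 CPM in CX-5461 libraries, and 267, 289.3 and 313.3 CPM in vehicle libraries. No groups overlapped. CX-5461 raised IER5 by 2.05 ± 0.09, a 4.15-fold change (edgeR adjusted p = 1.54e-14). The combination raised it by 1.19 ± 0.09 and panobinostat by 0.71 ± 0.09 (edgeR adjusted p = 1.75e-11 and 1.5e-07). The combination was higher than panobinostat by 0.47 ± 0.09 (edgeR adjusted p = 0.00257) and lower than CX-5461, at -0.87 ± 0.09 (edgeR adjusted p = 4.32e-09).

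In JJN3, IER5 was at 428.4, 419.7 and 323.3 CPM in combination libraries, 267.1, 217.4 and 232.3 CPM in panobinostat libraries, 260, 196.3 and 197.9 CPM in CX-5461 libraries, and 202.6, 165.1 and 184.2 CPM in vehicle libraries. Combination libraries lay above all others, CX-5461 libraries overlapped both panobinostat and vehicle libraries, and every panobinostat library lay above every vehicle library. The combination raised IER5 by 0.98 ± 0.16 (edgeR adjusted p = 0.000114). CX-5461 gave 0.19 ± 0.16 and panobinostat 0.35 ± 0.16, neither called (edgeR adjusted p = 0.98 and 0.111). With the replicate block the panobinostat value was 0.34 ± 0.09 and called (edgeR adjusted p = 0.00322, range over alternatives 0.00322 to 0.229). Combination against panobinostat was 0.63 ± 0.16 (edgeR adjusted p = 0.062), and 0.63 ± 0.09 with the block, which called it (edgeR adjusted p = 2.67e-05, range over alternatives 2.67e-05 to 0.0652). DESeq2, library size alone and leaving out the filter on low counts called it too, as did leaving out combination replicate 3, at 0.76.

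KLF6 went against the other genes under panobinostat in MM1.S. It was at 63.6, 87.8 and 62.5 CPM in combination libraries, 77.9, 96.8 and 84.9 CPM in panobinostat libraries, 148.9, 163.1 and 145.1 CPM in CX-5461 libraries, and 117.4, 117.5 and 112.2 CPM in vehicle libraries. Both groups with panobinostat lay below vehicle and the CX-5461 group above it. KLF6 fell in both, with log2 fold changes against vehicle of -0.87 ± 0.11 with the combination and -0.56 ± 0.11 with panobinostat (edgeR adjusted p = 2.9e-07 and 0.000121). CX-5461 gave 0.32 ± 0.11 (edgeR adjusted p = 0.0458), and that call was lost with DESeq2 (adjusted p = 0.0577) and RLE size factors (0.0535), over a range of 0.0122 to 0.0577 for all alternatives. It was also lost when any 1 of the 6 libraries was left out, with values of 0.28 to 0.34. The combination and panobinostat groups overlapped, and their difference of -0.31 ± 0.12 was not called (edgeR adjusted p = 0.132), although it was without combination replicate 2, at -0.49.

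In JJN3, KLF6 was at 49.2, 62.3 and 56.1 CPM in combination libraries, 77.2, 99.96 and 96.8 CPM in panobinostat libraries, 45.3, 67.2 and 55.6 CPM in CX-5461 libraries, and 46.1, 83.6 and 51.7 CPM in vehicle libraries. The replicate 2 library of the vehicle group overlapped the panobinostat group. Panobinostat raised KLF6 by 0.56 ± 0.20 (edgeR adjusted p = 0.0432). The call was lost without vehicle replicate 1 or 3 or any of panobinostat replicates 1, 2 and 3, at 0.41, 0.44, 0.64, 0.47 and 0.54, and kept without vehicle replicate 2, at 0.84. With the replicate block the value was 0.59 ± 0.11 and called (edgeR adjusted p = 6.03e-05, range over alternatives 6.03e-05 to 0.0415). KLF6 was higher with panobinostat than with vehicle in 3 of 3 replicate numbers. The combination gave -0.23 ± 0.20 and CX-5461 -0.17 ± 0.20, neither called (edgeR adjusted p = 0.382 and 0.984). Against panobinostat, the combination was lower in 3 of 3 replicate numbers at -0.79 ± 0.20 (edgeR adjusted p = 0.0645), and the block called the same value (standard error 0.11, edgeR adjusted p = 1.52e-05, range over alternatives 1.52e-05 to 0.0973). DESeq2 and leaving out the filter on low counts called it too.

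Over the 7 tested genes in JJN3, combination against panobinostat gave 0 calls by edgeR without the block, where 0.903% of genes were called, 0.184% higher and 0.719% lower. With the block 4 were called, EGR1 and KLF6 lower and IER2 and IER5 higher, where 12.3% of genes were called. Without the block 1611 genes had an unadjusted p under 0.05, and DESeq2 called 3 of the 7 genes and 262 of all genes. Higher calls were 20.4% of all calls, and 51.3% with scaling to library size alone. The combination against CX-5461, a comparison added after the data were seen, gave calls for all 8 genes in MM1.S, EGR1, EGR2, NR4A1, NR4A2, NR4A3 and IER2 higher and IER5 and KLF6 lower, where 69.8% of genes were called. In JJN3 it called NR4A1, NR4A2, NR4A3, IER2 and IER5 higher, 5 of 7, where 34.4% were called. Of these, the NR4A2 value of 1.37 ± 0.42 (edgeR adjusted p = 0.0188) lost its call without CX-5461 replicate 1, CX-5461 replicate 3 or combination replicate 1, at 1.02, 1.16 and 1.19, and was 2.11 without CX-5461 replicate 2. In the comparison with CX-5461 too, some genes called higher passed the filter on low counts only through groups with panobinostat. They were EGR1, EGR2, NR4A1 and NR4A3 in MM1.S, and NR4A1 and NR4A3 in JJN3.

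**Figure D3:**
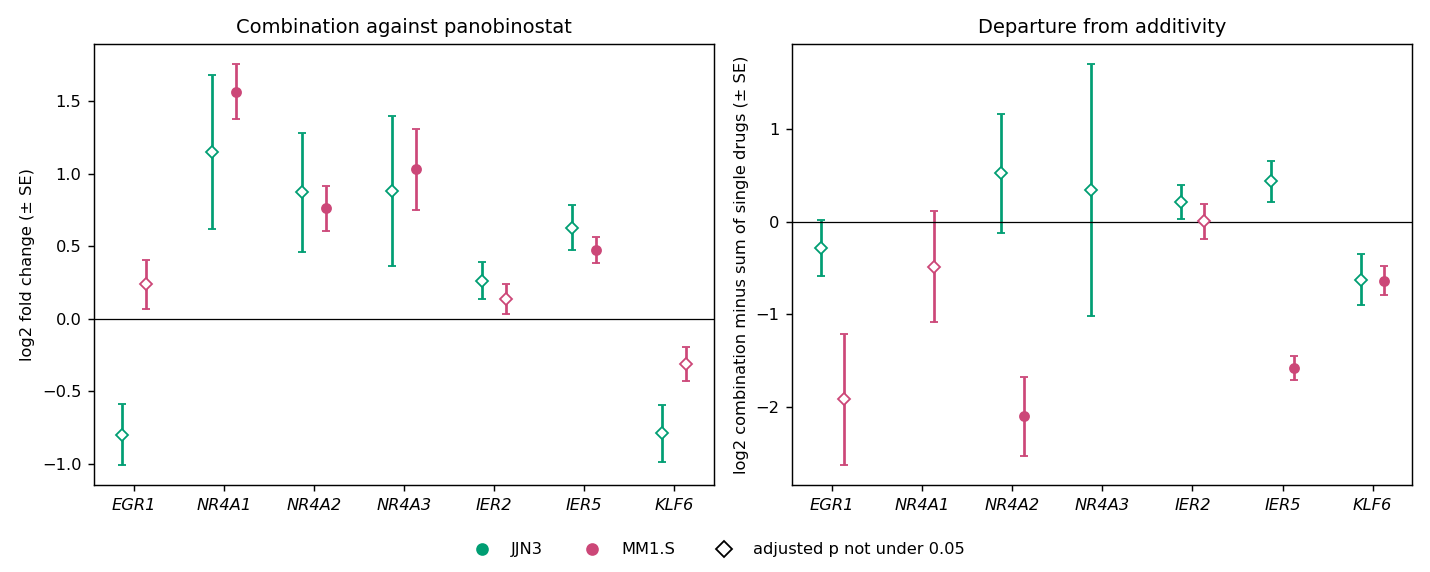
Left, log2 fold change of combination against panobinostat, and right, departure from additivity, each ± SE from edgeR, for 7 genes in JJN3 and MM1.S. Filled points have an adjusted p under 0.05 without the replicate block, open diamonds do not, and values that rest on a group with 3 or fewer counts are left out. The NR4A1, NR4A2, NR4A3 and IER5 points of MM1.S are filled on the left, and IER5 lies at -1.58 on the right.

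Additivity was taken on the log2 scale: the effects of both single drugs against vehicle were summed and subtracted from the effect of the combination. In MM1.S, IER5 departed from the sum by -1.58 ± 0.13, NR4A2 by -2.10 ± 0.43 and KLF6 by -0.63 ± 0.16 (edgeR adjusted p = 9.33e-09, 0.00312 and 0.0182). These were 3 of 8 tested genes, all lower, where 5.52% of genes were called, 1.87% higher and 3.65% lower. The NR4A2 value rests on 9 vehicle counts and on the log2 scale. Its means were 39.2 CPM with the combination, 22.55 with panobinostat, 4.108 with CX-5461 and 0.5369 with vehicle. In CPM the NR4A2 gain with the combination was thus not below the summed gains of the single drugs. The KLF6 call was lost without vehicle replicate 3, CX-5461 replicate 2, panobinostat replicate 2, combination replicate 1 or combination replicate 3, at -0.591, -0.595, -0.554, -0.572 and -0.556. No value is given for EGR2 and NR4A3, whose vehicle libraries held 0 counts. EGR1 at -1.92 ± 0.71 and NR4A1 at -0.48 ± 0.60 were not called (edgeR adjusted p = 0.121 and 0.725). IER2 was at 0.01 ± 0.19 (edgeR adjusted p = 0.996). In JJN3, 0 of 7 genes and 0% of all genes were called by edgeR, with 564 genes at an unadjusted p under 0.05 and 19 called by DESeq2. With the replicate block KLF6 was called, at -0.64 ± 0.16 (edgeR adjusted p = 0.0367, range over alternatives 0.0367 to 1), among 105 genes, 0.920% of those tested.

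The effects of treatment in JJN3 and MM1.S were compared in 1 fit of 24 libraries, as the effect in JJN3 minus the effect in MM1.S. For panobinostat the difference was -6.14 ± 0.52 for EGR1, -4.38 ± 0.62 for NR4A2, -3.26 ± 0.19 for IER2 and 1.14 ± 0.23 for KLF6 (edgeR adjusted p = 1.69e-10, 1.97e-06, 2.8e-14 and 0.000222). The EGR1 value was -7.55 without MM1.S vehicle replicate 2. NR4A3 was called lower as well (edgeR adjusted p = 0.0254). On the log2 scale the effects on EGR1, NR4A2, NR4A3 and IER2 were thus smaller in JJN3, where that on NR4A2 was itself not called. KLF6 was called in opposite directions in the lines. In CPM the gain of IER2 was not smaller in JJN3, with means from 302.9 to 489.4 there and from 10.48 to 177.7 in MM1.S. The NR4A3 call rests on a vehicle group with 0 counts in MM1.S. EGR2 and NR4A1, which had 1 count each in the JJN3 vehicle group, were not called (edgeR adjusted p = 0.125 and 0.852). These 5 of 8 calls stand against 33.3% of genes called. IER5 at -0.34 ± 0.19 was not called (edgeR adjusted p = 0.161), but was with library size alone (-0.47, adjusted p = 0.0322) and the replicate block (-0.35, adjusted p = 0.021), over a range of 0.021 to 0.15. It was also called without MM1.S panobinostat replicate 1, at -0.50.

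For the combination the difference was -7.18 ± 0.50 for EGR1, -4.27 ± 0.61 for NR4A2, -3.14 ± 0.19 for IER2 and 0.66 ± 0.23 for KLF6 (edgeR adjusted p = 2.84e-12, 1.82e-06, 8.78e-14 and 0.027), and NR4A3 was again lower (edgeR adjusted p = 0.0205). In this comparison 32.8% of genes were called, and the EGR1 value was -8.58 without MM1.S vehicle replicate 2. The KLF6 call was lost with library size alone (0.58, adjusted p = 0.0716, range over alternatives 0.000166 to 0.0716) and in 9 of 12 fits that left out 1 library, with values of 0.45 to 0.64. It was kept without MM1.S combination replicate 2, JJN3 vehicle replicate 2 or JJN3 combination replicate 1. For CX-5461, IER5 alone was called, at -1.86 ± 0.19 (edgeR adjusted p = 9.65e-08), where 1.32% of genes were called. EGR1 at -2.66 ± 0.77 and NR4A2 at -2.51 ± 0.67 were not called (edgeR adjusted p = 0.087 and 0.0531). Both were called with DESeq2, without the filter on low counts and with the replicate block (edgeR adjusted p = 0.0172 and 0.0236 with the block), with ranges over alternatives of 0.00376 to 0.102 for EGR1 and 0.00207 to 0.0573 for NR4A2. EGR1 was called without MM1.S vehicle replicate 2, JJN3 vehicle replicate 3 or JJN3 CX-5461 replicate 2, at -3.98, -2.86 and -2.87, and NR4A2 without JJN3 vehicle replicate 3 or JJN3 CX-5461 replicate 2, at -2.81 and -3.23. The EGR1 differences rest on 490 counts in the JJN3 vehicle group and 4 in the MM1.S vehicle group.

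The 4 lists of related genes were followed through the same tests. Of 36 other immediate early genes 30 were tested in each line. In MM1.S, 13 were higher and 8 lower with the combination, 15 higher and 9 lower with panobinostat, and 11 higher and 2 lower with CX-5461, with median log2 fold changes of 0.69, 0.65 and 0.25 against 0.0632, 0.066 and 0.00768 for all genes. Of all genes 70.2%, 69.8% and 16.7% were called in these comparisons, so the counts with the combination and panobinostat are near the background. RGS2, a regulator of G protein signalling, averaged 479.9 ± 53.5 CPM with the combination and 503.3 ± 93.7 CPM with panobinostat, against 51.2 ± 3.27 CPM with vehicle (SD, n = 3 each). DUSP1, a phosphatase that shuts off MAP kinases, averaged 23.6 ± 2.95 CPM with the combination and 39.6 ± 6.08 CPM with panobinostat, against 2.17 ± 0.352 CPM with vehicle. DUSP4, another MAP kinase phosphatase, and the repressor NFIL3 were lower with panobinostat, at -1.56 ± 0.13 and -1.35 ± 0.10 (edgeR adjusted p = 9.44e-11 and 9.12e-12). With CX-5461 the kinase PLK2 rose by 2.25 ± 0.18 and PPP1R15A, a phosphatase subunit of the stress response, by 1.84 ± 0.15, while KLF2 was at -1.11 ± 0.17 (edgeR adjusted p = 2.28e-09, 3.05e-09 and 4.12e-05).

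In JJN3, 10 of these 30 were higher and 3 lower with the combination, 8 higher and 0 lower with panobinostat, and 0 changed with CX-5461, with medians of 0.50, 0.53 and 0.0431 against 0.00497, 0.00533 and -0.0031 for all genes. The calls with the combination and panobinostat are again near the background, 39.2% and 26.0% of all genes. SPRED1, an inhibitor of MAP kinase signalling, averaged 41.5 ± 10.6 CPM with the combination and 40.5 ± 9.98 CPM with panobinostat, against 18.9 ± 1.35 CPM with vehicle. SGK1, a kinase, rose with the combination by 1.45 ± 0.28 (edgeR adjusted p = 0.000556), and the antiproliferative gene BTG2 was at -0.64 ± 0.18 (edgeR adjusted p = 0.00923). Combination against panobinostat called 0 of the 30 higher and 4 lower in MM1.S, among them BTG2 at -0.87 ± 0.10 (edgeR adjusted p = 1.52e-05), where NR4A1, NR4A2, NR4A3 and IER5 were higher and 4.08% of all genes were called, 2.44% higher and 1.65% lower. For departure from additivity in MM1.S the list had 0 higher and 9 lower calls, where 1.87% of all genes were higher and 3.65% lower.

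Among 7 AP-1 genes, 6 were tested. In MM1.S, 5 were higher and 0 lower with the combination, 5 higher and 1 lower with panobinostat, and 4 higher and 0 lower with CX-5461, where 70.2%, 69.8% and 16.7% of all genes were called. Their median log2 fold changes, with genes at 3 or fewer counts in vehicle placed at their bound or ratio, were 2.45, 2.38 and 1.24. JUN averaged 585.7 ± 21.1 CPM with the combination, 717.5 ± 5.14 CPM with panobinostat and 307.9 ± 26.6 CPM with CX-5461, against 78.2 ± 19.3 CPM with vehicle (SD, n = 3 each). FOS averaged 11.85 ± 0.743 CPM with panobinostat and 0.0528 ± 0.0915 CPM with vehicle, and was called higher (edgeR adjusted p = 8.37e-12). The panobinostat effect on FOS was called lower in JJN3 than in MM1.S (edgeR adjusted p = 6.98e-05). FOSL2 was lower with panobinostat, at -0.82 ± 0.22 (edgeR adjusted p = 0.00239), and higher with CX-5461, at 0.93 ± 0.19 (edgeR adjusted p = 0.00131). In JJN3, where 39.2% of all genes were called with the combination, 2 of 6 were higher, FOS at 1.62 ± 0.54 and FOSB at 2.22 ± 0.62 (edgeR adjusted p = 0.0256 and 0.00836), and 0 were called with panobinostat or CX-5461. JUNB averaged 68.7 ± 18.2 CPM in JJN3 vehicle libraries and 13.7 ± 2.74 CPM in MM1.S vehicle libraries (2.28 ± 0.23, edgeR adjusted p = 1.71e-09).

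Of 17 upstream kinases and transcription factors, all tested, 3 were higher and 9 lower in MM1.S with the combination, and 5 higher and 8 lower with panobinostat, near the 70.2% and 69.8% of all genes called. Their medians were -0.31 and -0.25, against 0.0632 and 0.066 for all genes. The SRF coactivator MRTFA rose with panobinostat by 0.94 ± 0.16 (edgeR adjusted p = 1.15e-05). The acetyltransferase CREBBP was at -1.23 ± 0.13 and RPS6KA4, a kinase that acts on CREB and chromatin, at -1.61 ± 0.17 (edgeR adjusted p = 1.24e-08 and 9.24e-09). SRF itself was lower with CX-5461, at -0.29 ± 0.10 (edgeR adjusted p = 0.0482). In JJN3, 3 were higher and 1 lower with the combination, and 1 higher and 1 lower with panobinostat, where 39.2% and 26.0% of all genes were called.

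Of 5 partners and corepressors 3 were tested, and 2 of them, NAB2 and RXRA, were called in MM1.S with the combination and with panobinostat, where 70.2% and 69.8% of all genes were called. NAB2, the EGR corepressor, averaged 8.84 ± 0.854 CPM with the combination and 7.27 ± 1.78 CPM with panobinostat, against 0.985 ± 0.523 CPM with vehicle in MM1.S (SD, n = 3 each). Its log2 fold change was 2.92 ± 0.36 with the combination and 2.66 ± 0.37 with panobinostat (edgeR adjusted p = 1.13e-07 and 7.5e-07). RXRA, a partner of NR4A1 and NR4A2, was lower, at -1.34 ± 0.18 with the combination and -1.39 ± 0.18 with panobinostat (edgeR adjusted p = 3.72e-07 and 2.61e-07). In JJN3, RXRA was higher with panobinostat by 0.64 ± 0.23 (edgeR adjusted p = 0.0478). Between the lines, the panobinostat effect (JJN3 minus MM1.S) differed by 2.05 ± 0.31 for RXRA and -1.85 ± 0.54 for NAB2 (edgeR adjusted p = 5.6e-06 and 0.00769).

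**Figure D4:**
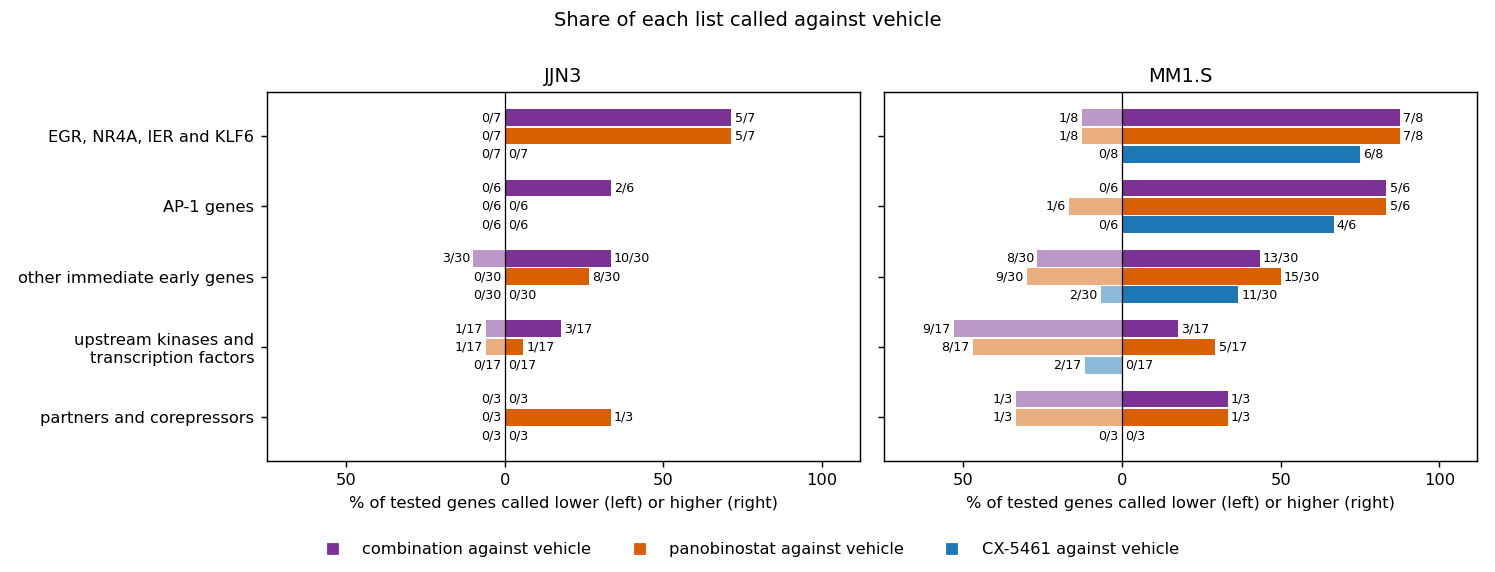
Share of the tested genes of each list called higher (right, full colour) or lower (left, pale) against vehicle in JJN3 and MM1.S, in % of tested genes, with counts printed beside the bars. The top row holds the EGR, NR4A, IER and KLF6 genes, with 5 of 7 higher in JJN3 under the combination and under panobinostat and 0 of 7 under CX-5461, against 7 of 8, 7 of 8 and 6 of 8 in MM1.S. Of all genes tested, 21.0%, 15.0% and 0% were called higher in these JJN3 comparisons, and 37.0%, 36.9% and 9.68% in those of MM1.S. Some genes of the top row passed the filter on low counts only through groups with panobinostat. They were EGR1, EGR2, NR4A1 and NR4A3 in MM1.S, and NR4A1 and NR4A3 in JJN3.

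Across the 8 group means of log2 CPM, NR4A2 and NR4A3 had a Pearson r of 0.97, NR4A1 and NR4A3 of 0.94 and NR4A1 and NR4A2 of 0.93. EGR1 and IER2 had an r of 0.94 with each other and KLF6 had -0.85 with IER2. IER5 was most like NR4A1 among the 7 genes compared, with an r of 0.62. These values describe 8 points that share lines and treatments, and they carry no test. Among 7928 other genes whose log2 CPM averaged 3 or more, those most like each gene by the same measure were SLC4A11 for EGR1 (r of 0.991), CDC34 for NR4A1 (0.99), STK25 for NR4A2 (0.986), UBTD1 for NR4A3 (0.991), SPIRE1 for IER2 (0.999), RHBDD2 for IER5 (0.974) and EP300 for KLF6 (0.959). The number of genes with an r over 0.9 was 496 for IER2, 344 for NR4A1, 28 for IER5 and 27 for KLF6.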

How the data were processed

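The authors deposited 1 table per line, with a column for each library, of raw counts of 3′ RNA-seq reads per gene, with NCBI gene identifiers. HISAT2 2.2.1, featureCounts 2.0.1, limma 3.50.0, hg19 and GRCh37 are named in the submitters' processing notes, with no role or order. For the annotation, the strand setting and multi-mapped reads, the sources used here give nothing. Identifiers were given symbols from a gene name table, and those without one held at most 0.0387% of a library's counts. Levels are CPM, counts scaled by the library total.

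Counts were tested with edgeR 4.0.16 in R 4.3.3 (TMM scaling, filterByExpr with a minimum count of 10, robust quasi-likelihood test, Benjamini-Hochberg adjustment, threshold 0.05). Each line was fitted on its 12 libraries (12030 genes in MM1.S, 11411 in JJN3), and differences between lines on all 24 (12872 genes). DESeq2 1.42.0, limma-voom (limma 3.58.1), RLE size factors, library size alone, no filter on low counts, the replicate number as a block, and each library left out in turn were alternatives. A further alternative, JJN3 without the 4 libraries of replicate 2, was not planned and covers only the comparisons with vehicle. The fits were also run on simulated counts in which only well-counted genes changed and replicates were not paired. That run does not cover genes near 0. In JJN3 same-numbered libraries deviated together in 18 of 18 pairs (correlations of deviations from the group means 0.201 to 0.485), so the numbers pair them, a pairing that comes from the data and not from the labels. Replicates of every group differed by more than sampling noise. Counts limit the precision of low genes, and 95% counting intervals are given for ratios to groups of 1 to 3 counts.

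The 10 genes and the 4 related lists were chosen with earlier results of these data known. All 10 genes are described in every group, and from each list at most 4 genes per comparison are named, those with the smallest adjusted p in each direction.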

Additional observations from a re-analysis of the deposited data

Results flagged for a closer look

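In 11 cases the effect of a treatment differed between JJN3 and MM1.S by a test of the difference itself (edgeR, 24 libraries). For the combination, the adjusted p was 2.84e-12 for EGR1, 1.82e-06 for NR4A2, 0.0205 for NR4A3, 8.78e-14 for IER2 and 0.027 for KLF6. For panobinostat it was 1.69e-10 for EGR1, 1.97e-06 for NR4A2, 0.0254 for NR4A3, 2.8e-14 for IER2 and 0.000222 for KLF6. For CX-5461 it was 9.65e-08 for IER5. On the log2 scale the effect was lower in JJN3 than in MM1.S in all of these but KLF6, which was higher in JJN3 under both treatments. The vehicle level of EGR1 and IER2 was higher in JJN3, and its part in these differences was not tested.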

How the results depend on the processing

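Of 1470 values of single genes under alternatives, 1358 kept their direction and their side of the threshold, 53 lost and 36 gained a call, and 23 turned direction, all of the last among values not called. Where a call or direction moved, the cause was not tested. Scaling to library size alone moved the median of all genes by 0.17 with the combination and 0.14 with panobinostat in MM1.S, and by 0.11 with the combination in JJN3. Depth limits EGR2, EGR3, IER3 and the NR4A genes of untreated cells.

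The replicate block moved the genes called to 925 for combination against panobinostat and 1023 for departure from additivity in MM1.S. There same-numbered libraries deviated together in only part of the pairs and more weakly than in JJN3 (6 of 18 pairs over 0.1, correlations -0.0474 to 0.29). The highest value was between panobinostat and combination replicate 2, against a mean of -0.15 for other numbers. In JJN3 the block called 157 genes for CX-5461, 4784 for panobinostat, 1399 for combination against panobinostat and 105 for departure from additivity, and 582 for the line difference under CX-5461. DESeq2 called 19, 262 and 19 genes for CX-5461, combination against panobinostat and departure from additivity in JJN3, and the fit without the filter 31, 439 and 46, with 310 for the CX-5461 line difference. Among the 10 genes, combination against panobinostat in JJN3 gave 3 calls with DESeq2, 1 with library size alone, 3 without the filter and 4 with the block. Departure from additivity in JJN3 gave 1 with the block. The CX-5461 line difference gave 3 calls with DESeq2, with no filter and with the block. The block changed no call of these genes in JJN3 other than those given in the report. In MM1.S it called KLF6 for combination against panobinostat (-0.317).

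With 1 library left out, the genes called among the 10 ranged from 3 to 5 for CX-5461 in MM1.S, 2 to 5 for panobinostat and 0 to 1 for combination against panobinostat in JJN3, and 1 to 3 for the CX-5461 line difference. All genes called ranged from 175 to 1177 for combination against panobinostat and 415 to 1042 for departure from additivity in MM1.S. In JJN3 they ranged from 0 to 2 for CX-5461, 1957 to 2950 for panobinostat, 0 to 105 for combination against panobinostat and 0 to 1 for departure from additivity. For the CX-5461 line difference they ranged from 108 to 245.

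Direction turned for IER2 departure from additivity in MM1.S (-0.0308 with library size alone, -0.0718 to 0.0923 with 1 library left out). In JJN3 it turned under CX-5461 for NR4A2 (-0.0586 without replicate 2, -0.397 to 0.692 with 1 library left out), NR4A3 (-0.000152 with limma-voom, -0.04 without replicate 2, -0.445 to 1.1) and KLF6 (-0.327 to 0.131). With the combination in JJN3 it turned for EGR1 (-0.0263 without the filter, -0.194 to 0.144) and KLF6 (-0.392 to 0.0417 against vehicle, -0.187 to 0.0935 against CX-5461), for NR4A3 departure from additivity (-0.217 to 1.33), and for the IER2 line difference under CX-5461 (-0.164 to 0.0216).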
